A study of Populus tremula x Populus alba with 3 samples.

Results

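Among 2151 poplar genes that the authors listed as differing between PtaDML10 RNAi lines and wild type, 66 are described as RNA-binding, splicing, helicase or ribonucleoprotein genes, of 41335 genes counted in all. They were found by searching the Arabidopsis descriptions in the authors' deposited table for those words. Ribosomal proteins, pentatricopeptide proteins, matches to organelle genomes and Potri.004G155300 were left out. The table keeps genes with an adjusted p-value (FDR) under 0.05 for the same libraries, so every member had been selected for a difference between the RNAi and wild type libraries. The values of that contrast are therefore given as a description, and nothing is supported with them.

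The material was unopened apical buds of the Populus tremula x Populus alba hybrid INRA clone 717-1B4. Wild type gave 1 library, and RNA interference aimed at PtaDML10, whose name refers to DEMETER-like enzymes that take methylated cytosine out of DNA, gave 1 library from line KD2 and 1 from line KD5, with 15 buds from 15 plants for each genotype. All plants had 4 weeks of 16 h days at 21 °C, 12 weeks of 8 h days at 19 °C and 4 weeks in the cold at 4 °C before a return to long days. Each RNAi line is a single transgenic line, and no source used here names the promoter of its construct.

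The wild type library totalled 6829583 counts, against 4509887 and 4692056 in KD2 and KD5. The locus taken from published naming as PtaDML10, Potri.010G234400, had 59 counts in wild type and 63 and 83 in the libraries labelled KD2 and KD5, or 9.59, 13.2 and 17.0 CPM (counts scaled to a common library size and by TMM, a correction for differences in composition). Both RNAi libraries were above wild type at this locus, so a knockdown is not seen in these counts. The edgeR quasi-likelihood test did not call the difference (log2 fold change 0.66, SE 0.31, adjusted p 0.15). Whether the target was knocked down was not tested further, and KD2 and KD5 stand here for the libraries so labelled. Of shoot meristem genes, the authors' deposited table holds 6 matches, SHOOT MERISTEMLESS among them. Their summed level was 382 CPM in wild type against 185 and 235 CPM in KD2 and KD5. The 25 green leaf genes found there summed to 12197, 6232 and 6691 CPM. Of these, 24 were below wild type in both RNAi libraries. All were selected for a difference on the same libraries, so leaf and meristem genes without one could not appear. Among all genes listed by the authors, 45.5% were lower under a mean of 32 CPM, 81.3% up to 128 CPM and 98.7% above. Neither the sums nor the count can therefore check the label of the tissue or measure tissue content. The part of tissue content in the results given here was not tested, and in bulk buds fewer cells of a type and less RNA per cell cannot be told apart.

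Introns are removed from pre-mRNA by the spliceosome, which is built from small nuclear ribonucleoproteins (snRNPs). Each snRNP joins a small RNA to a ring of Sm core proteins and to proteins of its own, such as U1-70K in the U1 snRNP, which recognises the 5′ splice site. SR proteins, named for their serine and arginine repeats, carry an RNA recognition motif (RRM) and help recruit snRNPs to splice sites. In plants they also shape alternative splicing in response to light, temperature and stress. Helicases use ATP to unwind nucleic acids and act throughout RNA metabolism. Names such as U1-70K or SmE are those of the Arabidopsis matches, and a function given for a match is background from Arabidopsis or from eukaryotes in general. The files give no gene coordinates or lengths, so levels are compared between libraries and not between genes.

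Of the 66 members, 52 lay below wild type in both RNAi libraries and 14 lay above it in both. The lower members were reduced by 1.52-fold to 2.92-fold, and the higher ones raised by 1.72-fold to 2.12-fold, in the fitted values. Summed over the 52 lower members, the level was 9034 CPM in wild type against 4610 and 5106 CPM in KD2 and KD5. The 14 higher members together had 371 CPM in wild type against 696 and 673 CPM in KD2 and KD5. Every member passed the filter on low counts, with the smallest count in any library at 45.

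The edgeR quasi-likelihood test (Benjamini-Hochberg adjusted p below 0.05 over 23089 genes) called 52 members lower and 14 higher. It called 8.05% of all genes tested lower (1859) and 5% higher (1155), a balance that turned with scaling by library size alone, to 976 lower and 3004 higher. Since this is the contrast on which the members were chosen, nothing is read from the count. The members' median log2 fold change was -0.83, with a median of 0.02 over all genes tested. The absence of members near 0 follows from the choice. Wild type has 1 library, so each of these differences rests on that library, and RNAi values written with ± are means ± SD of 2 libraries. This SD differed widely between members. It was 0.50 CPM in the U1-70K match Potri.007G026900 and 39.6 CPM in Potri.017G146700, so a small SD is not read as precision. Nothing states that the libraries repeat a culture or planting, and the spread between KD2 and KD5 holds both line and sampling.

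**Figure D1:**
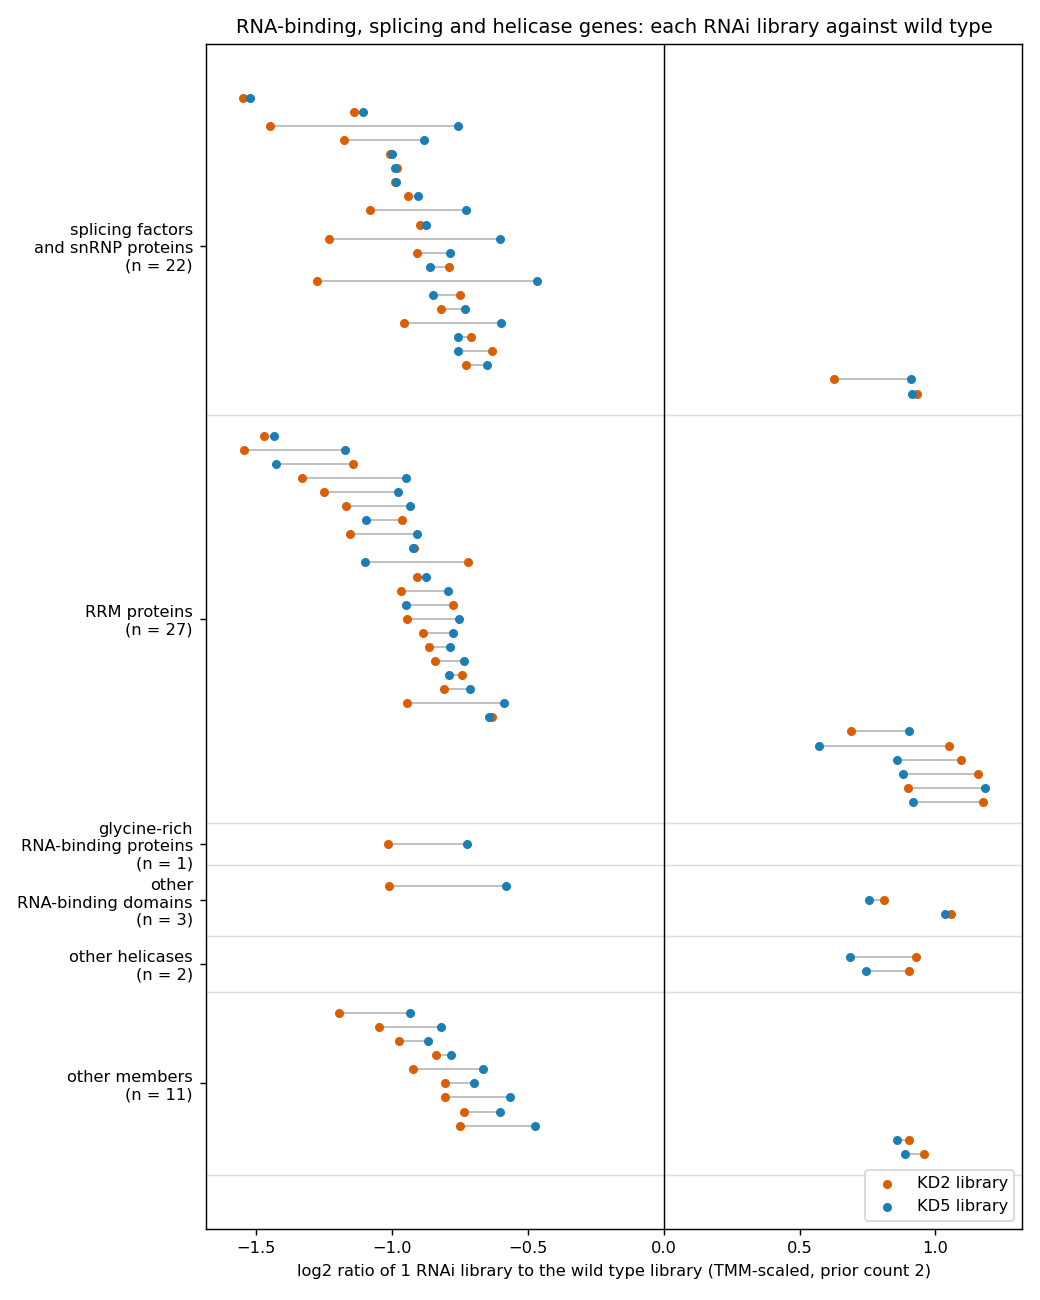
Log2 ratio of the KD2 library (orange) and the KD5 library (blue) to the wild type library for each of the 66 members, grouped by class of description and joined by a grey line per member. In every member both libraries lie on the same side of 0, 52 to the left and 14 to the right.

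The table holds 15 poplar genes that match 8 Arabidopsis SR loci, a grouping made after the values were seen, and all 15 were below wild type in both RNAi libraries. Their summed level was 2478 CPM in wild type against 1237 and 1319 CPM in KD2 and KD5. The median log2 fold change was -0.83, with a range from -1.54 to -0.69. By mean level, 9 of them lay between 32 and 128 CPM, where 81.3% of all genes listed by the authors were lower, and 6 lay over 128 CPM, where 98.7% were lower, so nothing particular to SR proteins is read from the count.

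SC35 is an SR protein that binds exonic enhancer sequences, and 4 members match it. The largest difference of all members was in the SC35 match Potri.T125700, with 700 counts in wild type against 184 and 192 in KD2 and KD5. This is 114 CPM against 39.0 ± 0.51 CPM (SD, n = 2), a log2 fold change of -1.54 (SE 0.18). Potri.005G165400 stood at 219 CPM in wild type against 110.9 and 110.3 CPM in KD2 and KD5. Potri.002G095800 had 89.7 CPM in wild type against 39.5 and 48.6 CPM in KD2 and KD5, and for Potri.003G023800 the values were 65.2, 33.8 and 34.6 CPM. The last 3 genes lay close together, at log2 fold changes of -0.99, -1.03 and -0.93, while Potri.T125700 lay further from wild type.

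Of the SCL proteins, SR proteins related to SC35, 3 genes match SCL30A and 1 matches SCL33. Potri.003G218600 (SCL30A) stood at 178 CPM in wild type against 115 and 105 CPM in KD2 and KD5. The other SCL30A matches, Potri.001G006400 and Potri.008G056600, had 124 and 68.4 CPM in wild type, against 70.1 and 39.5 CPM in KD2 and 74.4 and 37.5 CPM in KD5. The SCL33 match Potri.006G197000 had 52.7, 31.7 and 33.4 CPM. KD2 and KD5 were within 10 CPM of each other in all 4 genes, and wild type was the highest library in each.

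The RS proteins, a plant-specific branch of the SR family, gave the same order of libraries. The table describes AT4G25500 as splicing factor 35 with the symbols RSP35 and RSP40, and its match Potri.015G135800 had 373 CPM in wild type against 199.9 and 203 CPM in KD2 and KD5 (log2 fold change -0.89, SE 0.16). Its second match, Potri.012G133600, had 188, 115 and 111 CPM. The RSP31 match Potri.014G101800 and the match of RS31a, Potri.002G175000, stood at log2 fold changes of -0.76 and -0.79.

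SR proteins with a zinc knuckle include the RSZ32 matches and a match of RSZ22a. Potri.018G009100, the RSZ22a match, had 2179 counts in wild type against 577 and 766 in KD2 and KD5, or 354, 121 and 157 CPM (log2 fold change -1.35, SE 0.16). Potri.016G081700 (RSZ32) had 364 CPM in wild type against 163 and 194 CPM in KD2 and KD5, and Potri.006G215200 (RSZ32) had 125, 67.4 and 72.8 CPM. In these 3 genes KD2 was the lowest library.

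**Figure D2:**
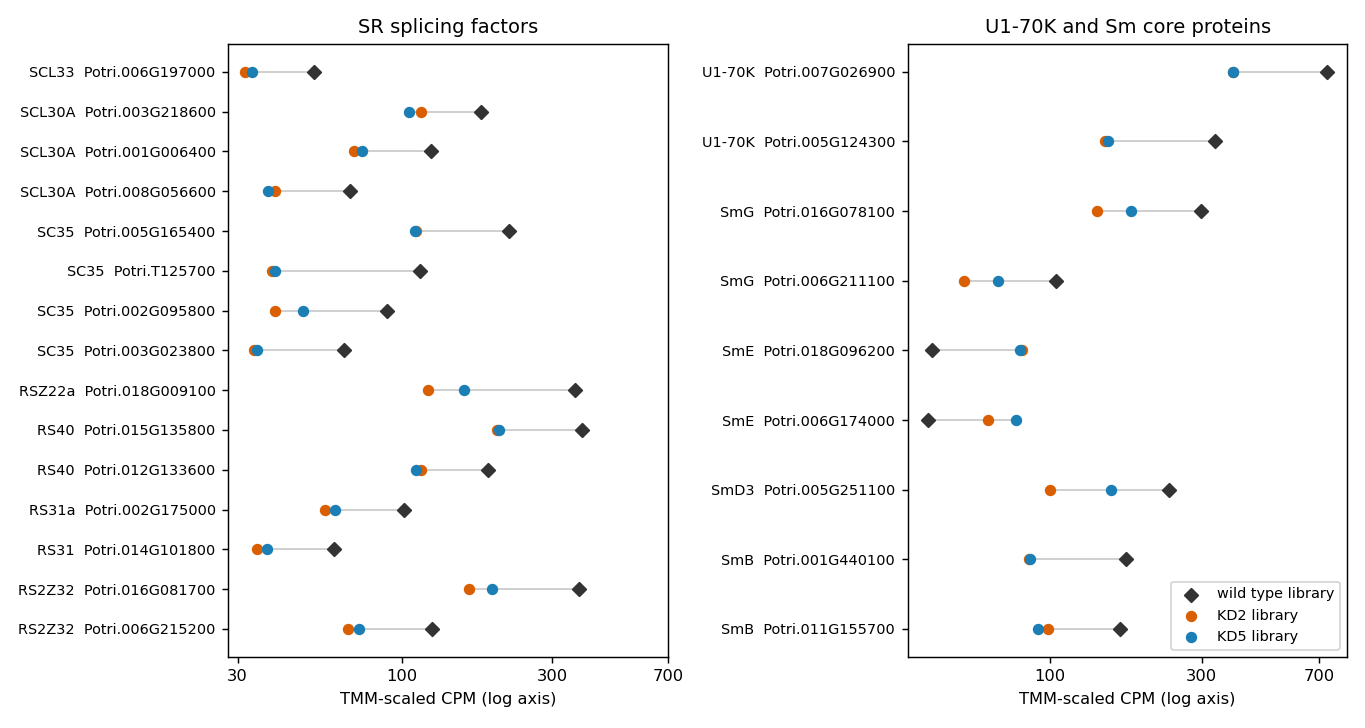
TMM-scaled CPM on a log axis in the wild type (diamond), KD2 (orange) and KD5 (blue) libraries for 15 SR protein genes (left) and for matches of U1-70K and Sm core proteins (right), each named by its Arabidopsis match and poplar identifier. Wild type is the highest library in all genes except the 2 SmE matches, where it is the lowest, and where KD2 cannot be seen it lies under KD5.

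U1-70K, which contacts SR proteins at the 5′ splice site, has 2 matches among the members. Potri.007G026900 had the most counts of any member, 4573 in wild type against 1785 and 1832 in KD2 and KD5. This is 743 CPM in wild type against 375 ± 0.50 CPM in the RNAi libraries (SD, n = 2; log2 fold change -0.99, SE 0.15). Potri.005G124300 had 329 CPM in wild type against 149 and 153 CPM in KD2 and KD5, at a log2 fold change of -1.12 (SE 0.16). KD2 and KD5 nearly coincided in both genes.

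The Sm core proteins did not all take one direction. The 5 matches of SmB, SmD3 and SmG were below wild type, with a median log2 fold change of -0.88, and the 2 matches of SmE were above it. SmE sits in the same ring, and in Arabidopsis this locus is known as PORCUPINE, whose loss gives cold-sensitive development. The SmE match Potri.018G096200 had 42.6 CPM in wild type against 81.7 and 80.5 CPM in KD2 and KD5, a log2 fold change of 0.93 (SE 0.19). The other, Potri.006G174000, had 41.5 CPM in wild type against 64.2 and 78.3 CPM in KD2 and KD5 (log2 fold change 0.78, SE 0.19).

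Among the lower Sm genes, the SmB match Potri.001G440100 had 174 CPM in wild type against 86.3 and 86.7 CPM in KD2 and KD5, and Potri.011G155700 (SmB) had 166, 98.9 and 92.2 CPM. The SmG match Potri.016G078100 had 299 CPM in wild type against 141 and 180.4 CPM in KD2 and KD5, and Potri.006G211100 (SmG) had 105, 53.7 and 68.9 CPM. Potri.005G251100, the SmD3 match, had 1454 counts in wild type against 479 and 759 in KD2 and KD5, or 236, 101 and 156 CPM. All 3 SmG and SmD3 matches were lower in KD2 than in KD5, while both SmB matches were nearly level between them.

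Further splicing members were also below wild type. Potri.015G138100, described only as a small nuclear ribonucleoprotein family protein (AT4G18372), had 39.0 CPM in wild type against 14.1 and 23.0 CPM in KD2 and KD5. The match of ATROPOS, Potri.012G012800, encodes a subunit of the SF3a complex of the U2 snRNP, and had 23.9 CPM in wild type against 9.66 and 17.2 CPM in KD2 and KD5. Potri.001G244600, a PWI domain splicing factor, stood at a log2 fold change of -0.85. Potri.017G033400, whose match AT2G43370 is a protein of the U11/U12 snRNP of the minor spliceosome, stood at -1.04, with 36.7, 18.7 and 17.0 CPM.

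By description, 27 members are RRM proteins, of which 5 are SR proteins treated above. Of the other 22, 16 were below wild type and 6 above it. RRM proteins bind single-stranded RNA and act in splicing, transport, stability and translation. The lowest pair of fold changes belonged to Potri.010G216800 and Potri.008G044700, which share the match AT3G54770. Potri.010G216800 had 212 counts in wild type against 58 and 61 in KD2 and KD5, a log2 fold change of -1.48 (SE 0.24). Potri.008G044700 had 197, 68 and 57 counts, at -1.30 (SE 0.25).

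RZ-1c, which combines an RRM with a zinc finger and interacts with SR proteins in Arabidopsis, has 2 matches. Potri.008G033000 had 377 CPM in wild type against 158 and 191 CPM in KD2 and KD5, and Potri.010G228700 had 309.9, 123 and 160.3 CPM. Their log2 fold changes were -1.11 and -1.13. Both were lower in KD2 than in KD5. The 2 matches of SR45a, an SR-like splicing regulator, were Potri.001G248100 at -0.83 and Potri.003G130300 at -0.76.

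Other RRM pairs also stayed close. Potri.001G423400 and Potri.T066800 match RBP45C, of a family related to poly(A) RNA-binding proteins, at log2 fold changes of -1.05 and -0.93. Those that match AT1G13190, Potri.010G051600 and Potri.008G182500, stood at -0.85 and -0.86. Those of AT1G76460, Potri.002G004600 and Potri.005G256700, stood at -0.92 and -0.78. The remaining lower RRM genes were Potri.005G105700 at -0.88, Potri.019G018900 at -0.91 and Potri.001G377400 at -0.64.

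The 6 higher RRM genes include both matches of NOT4, a RING and RRM protein of the CCR4-NOT complex, which shortens poly(A) tails. Potri.006G132300 (NOT4) had 19.2 CPM in wild type against 36.1 and 44.1 CPM in KD2 and KD5, and Potri.016G084700 (NOT4) had 14.6, 31.7 and 26.8 CPM. The match of AT4G17720, Potri.003G095400, had 18.5 CPM in wild type against 41.8 and 34.4 CPM in KD2 and KD5. Potri.006G208500, a match of AT5G06210, stood at a log2 fold change of 0.81.

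The other two higher RRM genes carry neighbouring numbers. Potri.001G255400 had 106 counts in wild type against 172 and 126 in KD2 and KD5, and Potri.001G255500, a CCCH zinc finger and RRM gene, had 45, 81 and 69 counts. Their log2 fold changes were 0.84 (SE 0.24) and 1.09 (SE 0.32). The identifiers on either side, Potri.001G255300 and Potri.001G255600, had log2 fold changes of 0.46 and -0.13. No source used here says how reads that overlap 2 genes were counted.

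Potri.T162000 was the only gene kept here that is described as a glycine-rich RNA-binding protein, and it matches GRP2, a protein with an RRM and a glycine-rich tail. It had 1151 counts in wild type against 440 and 552 in KD2 and KD5, or 187, 92.4 and 113 CPM. Its log2 fold change was -0.86 (SE 0.17).

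Members with KH domains, another fold that binds single-stranded RNA, went both ways. Potri.011G166000 and Potri.007G065500 match loci known as PNO1 and KRR1, which act in maturation of the small ribosomal subunit. Potri.011G166000 had 12.5 CPM in wild type against 26.5 and 26.0 CPM in KD2 and KD5, and Potri.007G065500 had 45.5, 80.2 and 77.1 CPM. The third, Potri.014G045000, a match of AT5G15270, had 66.0, 32.5 and 44.1 CPM.

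RRP5, a further factor of pre-rRNA cleavage, is the match of Potri.016G062600, described in the table only as RNA binding. It had 204 counts in wild type against 297 and 295 in KD2 and KD5 (log2 fold change 0.89, SE 0.20). The 3 genes that match RRP5, KRR1 and PNO1 were thus all above wild type, with KD2 and KD5 nearly level in each. They were grouped after their values were seen.

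Both helicases were above wild type. Potri.014G081100 matches RH8, a DEAD-box RNA helicase of processing bodies, where mRNAs are stored or decapped. It had 62.9 CPM in wild type against 118 and 106 CPM in KD2 and KD5, a log2 fold change of 0.83 (SE 0.18). Potri.012G063500, described as an ATP-dependent helicase (AT5G08110), had 115, 171 and 148 counts, a log2 fold change of 0.82 (SE 0.24).

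Double-stranded RNA-binding proteins assist the Dicer enzymes that make small RNAs. The match of DRB4, partner of DICER-LIKE4 in Arabidopsis, was Potri.019G037900, with 51.5 CPM in wild type against 26.0 and 28.1 CPM in KD2 and KD5. Potri.017G063700, the DRB5 match, lay on the other side, with 13.3 CPM in wild type against 26.2 and 25.0 CPM in KD2 and KD5. Their log2 fold changes were -0.93 (SE 0.21) and 0.94 (SE 0.26).

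The members not yet described were all below wild type. Potri.010G216100 matches UPF2, a factor of nonsense-mediated decay, which degrades mRNAs with premature stop codons, and had 48.9, 25.6 and 30.7 CPM in wild type, KD2 and KD5. The 3 Alba genes, small proteins that bind DNA or RNA, ranged from -0.81 to -0.67 in log2 fold change. Potri.018G083100 and Potri.006G160500, which share AT4G28990, stood at -1.07 and -0.93. Potri.001G153000, of the hyaluronan and mRNA binding family, had 511 CPM in wild type against 292 and 315 CPM in KD2 and KD5.

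Potri.017G146700, described as a Plectin/S10 domain protein, had 446, 266 and 322 CPM, and its match AT4G25740 is a ribosomal protein of the small subunit that the search words did not remove. It had the largest FDR of the members in the authors' deposited table, 0.0451, followed by the helicase Potri.012G063500 at 0.0426. Genes just outside the authors' threshold carry no description here, so no member just outside can be named.

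**Figure D3:**
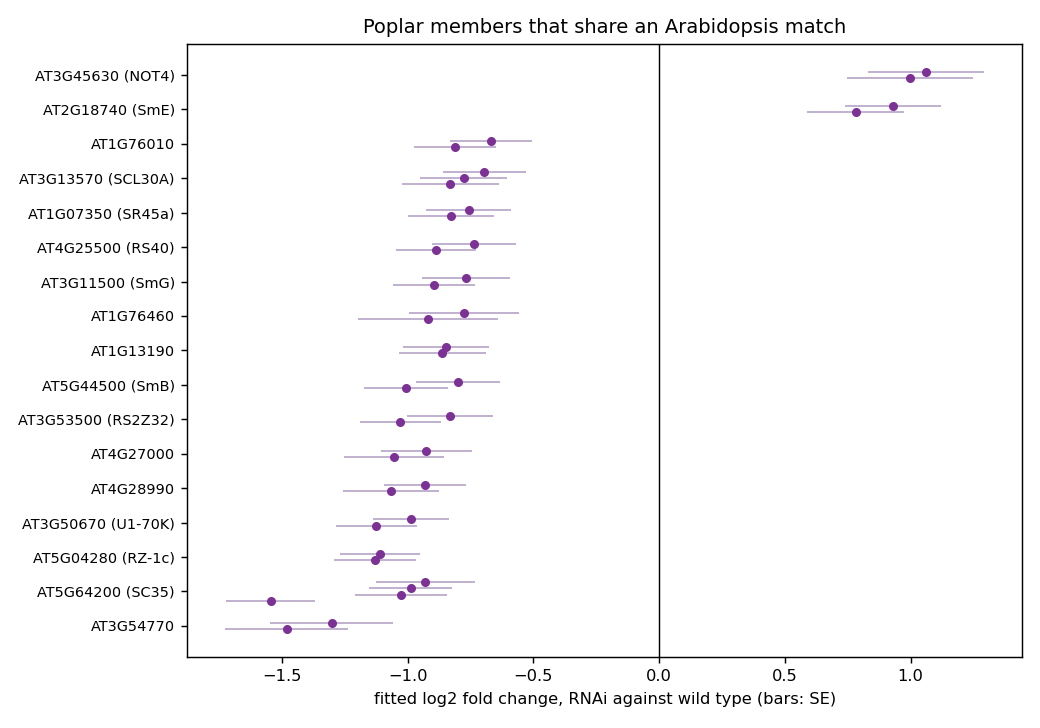
Fitted log2 fold change of the RNAi libraries against wild type (points, with SE bars) for the 37 members that share one of 17 Arabidopsis matches with another member. Within each match all points lie on the same side of 0, the SmE and NOT4 matches to the right and the remaining matches to the left.

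Poplar keeps many duplicated genes from an ancient genome duplication, and 37 of the 66 members share an Arabidopsis match with another member. They fall on 17 matches, and the 66 members on 46. In all 17 the poplar copies lay on the same side of wild type, although only copies that passed the authors' threshold can appear. Of all genes listed by the authors 64.5% were lower, which alone makes shared sides common. The same count was not made over other listed genes that share a match, so nothing particular to the members is read from it. The span of log2 fold changes within a match had a median of 0.14, and the widest was 0.62, among the SC35 matches. Close copies can share reads in counting, so copies are not separate measurements, and no source used here says how the authors counted such reads.

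The lower members had more counts than the higher ones. Wild type levels ran from 20.6 to 743 CPM for the 52 lower members, with a median of 124 CPM, and from 7.32 to 62.9 CPM for the 14 higher members, with a median of 18.9 CPM. Lower members are by definition higher in wild type than in RNAi, so part of this gap follows from the direction itself. All genes of the authors' deposited table show a similar split by abundance. Of its 388 genes with a mean over 128 CPM, 98.7% were lower in RNAi, and all 20 members in that range were lower. Between 32 and 128 CPM 81.3% of the listed genes were lower, against 24 of 31 members, and under 32 CPM 45.5% were lower, against 8 of 15 members. Over all genes tested the median log2 fold change was -0.35 above 128 CPM, -0.05 in the middle range and 0.11 under 32 CPM. A loess normalization on abundance, used in place of TMM, removes such a trend whatever its origin, which was not tested. It kept 52 members below and 14 above wild type, called 37 lower and 11 higher, and moved the median from -0.83 to -0.68. Taken apart, the median moved from -0.87 to -0.74 in the lower members and from 0.91 to 0.94 in the higher ones. Calls also fell over all 23089 genes tested, to 776 lower and 477 higher, from 1859 and 1155 with TMM.

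**Figure D4:**
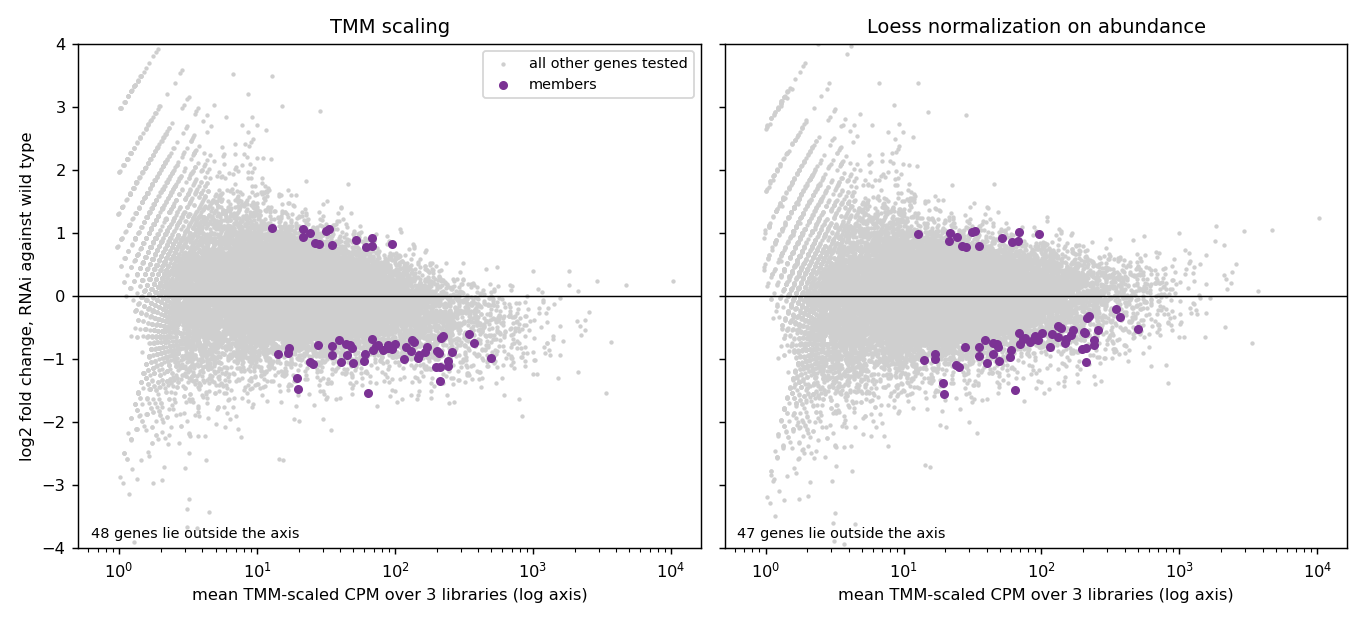
Fitted log2 fold change of RNAi against wild type plotted against mean TMM-scaled CPM over the 3 libraries (log axis), for the members (purple) and all other genes tested (grey), with TMM scaling (left) and loess normalization on abundance (right). The 20 members over 128 CPM all lie below 0 in both panels, and the lower members with the highest CPM move toward 0 after loess normalization.

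After loess normalization the calls that were lost included members with many counts. The U1-70K match Potri.007G026900 stood at -0.52, the RSP40 matches Potri.015G135800 and Potri.012G133600 at -0.54 and -0.50, and the SmD3 match Potri.005G251100 at -0.62, and none of these was called. The SC35 match Potri.T125700, the RSZ22a match, both RZ-1c matches, both SmE matches and both NOT4 matches were still called. Of the 15 SR genes, 12 kept a call, each of them lower, and the median was -0.70 on the log2 scale.

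KD2 and KD5, which the authors' contrast did not separate, were compared with each other as single libraries and without a test. With 1 wild type library, the spread between KD2 and KD5 is the only spread within a group. The authors' threshold could therefore favour genes in which KD2 and KD5 lie close, and nothing is read from their closeness in the members. Of the 66 members, 3 were more than 1.5-fold apart, or 4.55%, against 13.7% of all genes tested and 3.92% of the 14125 genes with a mean CPM at least that of the lowest member. The median log2 ratio of KD2 to KD5 was -0.07 over the members and 0.00 over all genes tested. KD2 was below KD5 in 43 members and above it in 23. Among the 52 members below wild type KD2 was the lower library in 40, and among the 14 above wild type it was the higher in 11. The same split was not made over all genes called, so nothing particular to the members is read from it.

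The 3 members past 1.5-fold are described as splicing factor or snRNP genes and were lower in KD2. The ATROPOS match Potri.012G012800 had 46 counts in KD2 and 84 in KD5, a log2 ratio of -0.81 with an exact 95% counting interval from -1.39 to -0.30. For Potri.015G138100, the snRNP family gene, the counts were 67 and 112, a log2 ratio of -0.69 with an interval from -1.16 to -0.26. The SmD3 match Potri.005G251100 had 479 and 759 counts, a log2 ratio of -0.63 with an interval from -0.80 to -0.46. These intervals cover counting error only. The highest ratio was that of Potri.001G255400, at 0.48 with an interval from 0.14 to 0.83. At the other extreme, the U1-70K match Potri.007G026900 stood at a log2 ratio of 0.00, with an interval from -0.10 to 0.09.

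**Figure D5:**
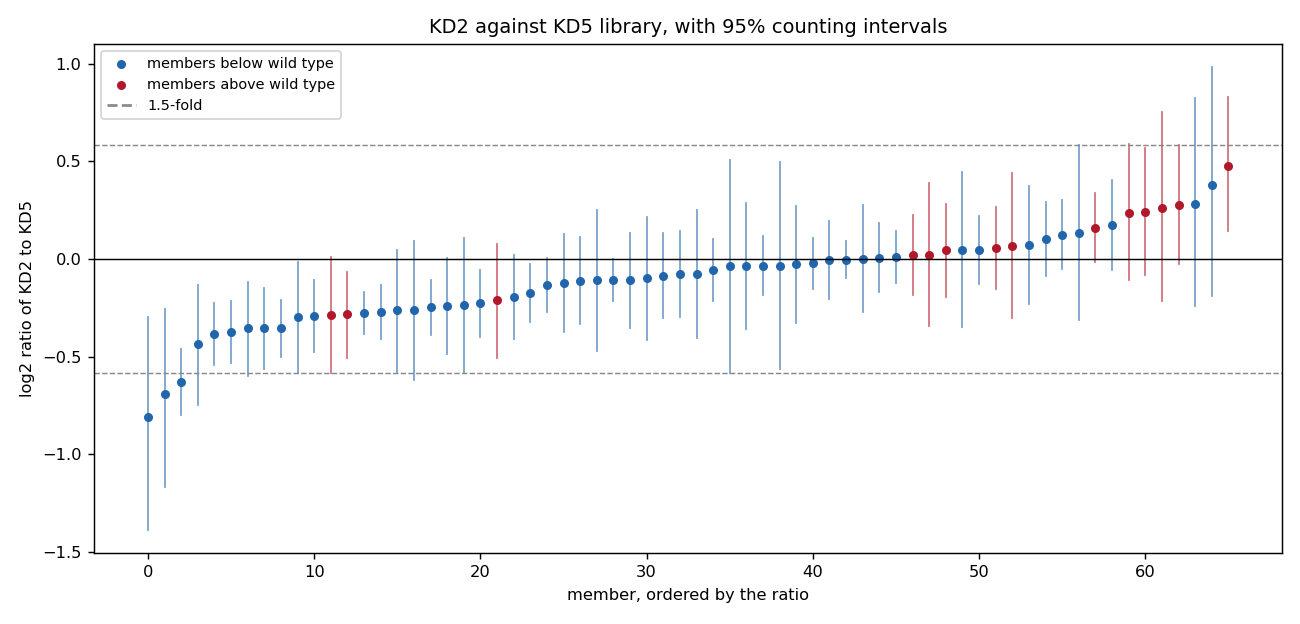
Log2 ratio of the KD2 to the KD5 library for the 66 members in order of the ratio, with 95% counting intervals as bars, for members below (blue) and above (red) wild type. The dashed lines mark 1.5-fold, and 3 members lie below the lower line and 0 above the upper one.

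Other RNA genes of the authors' deposited table, found by a list of words for RNA decay, capping, silencing, 3′ end formation, transcription, tRNA and translation, numbered 44. The test put 24 of them lower and 19 higher, while 64.5% of all genes listed by the authors were lower. Their median of -0.64 on the log2 scale falls among the lower genes and does not describe the higher ones. They had been selected on the same libraries, so these counts are a description too. Potri.006G187200, with 3, 14 and 14 counts, was not called.

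Of 12 genes matched by the words for translation factors, 2 are rubber elongation factors and 1 is a transcription elongation factor (TFIIS). Of the remaining 9, 8 were called lower and 1 higher. The 5 elongation factor Tu family genes ranged from -1.09 to -0.60, all with a mean over 128 CPM, where 98.7% of all listed genes were lower, and the match of initiation factor IF6, Potri.010G229800, stood at -0.85. Both matches of CPSF30, a subunit of the complex that cleaves mRNA for polyadenylation, were lower, Potri.011G089800 with 390, 152 and 153 counts and Potri.001G357800 with 259, 135 and 108 counts.

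Of 13 RNA polymerase genes 6 were called lower and 7 higher. The match of NRPD2A, Potri.006G263900, the second subunit of the plant polymerases IV and V that direct DNA methylation, had 98 counts in wild type against 42 and 34 in KD2 and KD5 (log2 fold change -1.01). The match of NRPE5, Potri.016G038500, a subunit of polymerase V, lay above wild type with 109, 149 and 165 counts (0.88). The pumilio gene Potri.003G073000, a match of APUM23, which takes part in pre-rRNA processing in Arabidopsis, had 109, 171 and 146 counts (0.89). Of 8 genes described as ribonuclease H-like, 7 were called higher and 0 lower. All had a mean under 128 CPM. Of all genes listed by the authors, 45.5% were lower under 32 CPM and 81.3% between 32 and 128 CPM. The ribonuclease H-like genes were grouped after their values were seen, and nothing is read from the count.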

How the data were processed

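Directional RNA-seq libraries were prepared from apical buds, per the labels' protocols. The authors deposited raw counts per gene for 41335 genes in 1 column per library. FastQC, TopHat and edgeR are named in the submitters' processing notes. No source used here gives their versions, the build, the annotation or the counting program. The authors' deposited table gives a log2 fold change, an average log2 CPM, a p-value and an FDR for 2151 genes, with Arabidopsis matches, per the file headers.

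The deposited counts went unchanged into edgeR 4.0.16 (R 4.3.3), with filterByExpr (minimum count 10), TMM scaling and the two-sided quasi-likelihood F-test, fitted over all 23089 genes kept. This leaves 1 residual degree of freedom, from KD2 against KD5, and wild type is assumed to vary like them. The SE is the fold change divided by the root of F. Ratios of single libraries used a prior count of 2. Intervals are exact binomial at 95%. Alternatives used other scalings, other filters and DESeq2 1.42.0.

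The members and lists were chosen with earlier results of these data known. Named members are, per class of description, the 3 with the largest fold change among those with at least 5 CPM and the one with most CPM, members that share a match, the 3 that differ most between KD2 and KD5 with at least 40 counts, and the 2 with the largest FDR. Further members are named to account for all, after their values were seen, as are the genes named from the list of other RNA genes. The search for RNA helicases found 0 members, since RH8 is spelled without a space, so both helicases are described together. The marker for secondary xylem, CESA7, was also taken from the genes listed by the authors. It had 15.1, 5.25 and 6.97 CPM in wild type, KD2 and KD5.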

Additional observations from a re-analysis of the deposited data

How the results depend on the processing

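All 66 members kept their side of wild type under each alternative that gave a value. With upper quartile scaling, RLE scaling or at least 1 CPM in all 3 libraries, 52 members were called lower and 14 higher, as with TMM. Library size alone called 44 lower and 14 higher. The median log2 fold change was then -0.61 over members and 0.24 over all genes tested. Loess normalization called 37 lower and 11 higher, with 776 lower and 477 higher over all genes tested, and the members' median was -0.68. With no low-count filter the edgeR quasi-likelihood test called 0 members lower and 0 higher, although all 66 had an unadjusted p under 0.05. It then called 0 of all 31352 genes tested in either direction, so this count is not particular to the members. DESeq2 called 32 lower and 2 higher among the 50 members to which it gave an adjusted p. The other 16, both lower and higher members among them, could not be called there. Of the 7038 genes with an adjusted p it called 555 lower and 40 higher. With 1 RNAi library left out the members' median ranged from -0.89 to -0.76, with no test. The count of 3 members more than 1.5-fold apart between KD2 and KD5 was the same under 4 alternatives, upper quartile scaling among them, which was added after seeing the data. No paired analysis was made, since no source used here pairs the wild type library with an RNAi library. The single wild type library limits every difference from wild type.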
